A study of Mus musculus with 16 samples.

Results

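The genes described here encode the machinery of the lysosome. They were chosen as a fixed list of 39 gene symbols, out of the 32285 genes in the deposited matrices, and all 39 were found. They comprise 5 subunits of the membrane sector (V0) and 8 of the cytosolic sector (V1) of the vacuolar H+-ATPase, its 2 accessory subunits, 7 lysosomal membrane proteins, 7 cathepsins together with the asparaginyl endopeptidase legumain, 7 glycosidases, lipid hydrolases and cofactors, and the transcription factors *Tfeb* and *Mitf*. The list was not chosen on measured values of any one comparison, but it was drawn up with earlier results of these data known.

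Lysosomes are acidic organelles in which hydrolases degrade material taken up from outside the cell or delivered by autophagy. The vacuolar H+-ATPase pumps protons across the lysosomal membrane: the V1 sector hydrolyses ATP in the cytosol and turns a rotor that drives protons through the V0 sector. Transcription factors of the MiT/TFE family, including *Tfeb* and *Mitf*, bind the motif CACGTG found in the promoters of many lysosomal genes. Macrophages are rich in lysosomes, and osteoclasts carry the same pump to the cell surface, where it acidifies the bone beneath them.

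Single-cell RNA-Seq was performed on bone marrow stromal cells taken from 12-week-old male mice and kept for 21 days in osteogenic medium with 10 mM beta-glycerophosphate. All mice carried floxed *Fgf23* alleles on the C57BL/6J background. WT mice had intact *Dmp1* and no Cre, Fgf23cKO mice had intact *Dmp1* and a Cre driven by the *Dmp1* promoter, which deletes *Fgf23* in cells of the late osteoblast and osteocyte lineage, Dmp1KO mice lacked *Dmp1* in all cells and had no Cre, and Dmp1KO/Fgf23cKO mice lacked *Dmp1* and carried the Cre. Since Cre was present only with the *Fgf23* deletion, the effects of Cre and of the deletion cannot be told apart.

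Each genotype was loaded as 1 droplet reaction that pooled 3 cultures carrying separate oligonucleotide tags. The comparisons rest on 11 tagged cultures, 3 per genotype and 2 for Dmp1KO, whose replicate 1 was not analysed here. They held 14577 of the 17793 cells, and 470 to 2825 cells each with 9518928 to 72482185 unique molecular identifiers (UMIs). Genotype and droplet reaction cannot be told apart. The p-values set differences between these reactions against the spread of cultures within them. They hold no spread between reactions of the same genotype. No source used here says whether the cultures came from separate mice. *Dmp1* was measured at 27.3 to 108 CPM (the UMIs of a gene as a share of all UMIs, scaled to a fixed total) in WT and 7.55 to 65.0 CPM in Fgf23cKO cultures, against 0 and 0.0477 CPM in the Dmp1KO and 1.32 to 2.16 CPM in the Dmp1KO/Fgf23cKO cultures. Most of its UMIs in WT and Fgf23cKO came from osteoblast/osteocyte-like cells, so the level of a whole culture also follows their number. The Dmp1KO cultures held 1 and 5 of them, the Dmp1KO/Fgf23cKO cultures 9 to 29, WT 23 to 47 and Fgf23cKO 4 to 14. In Dmp1KO replicate 3 the 5 such cells held 3 *Dmp1* UMIs. The 7 and 4 such cells of Fgf23cKO replicates 2 and 3 held 1145 and 107. *Fgf23* had between 0 and 8 UMIs in every culture, too few to check its deletion. Of 17758 distinct cell barcodes, 35 occurred in samples of different genotypes and 0 within a genotype.

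Clusters were named from fixed marker genes. Macrophage-like cells (6970 cells) carried all 10 macrophage markers in every tagged culture, and osteoprogenitor-like (742 cells), pre-osteoblast-like (409 cells), osteoblast/osteocyte-like (386 cells) and osteoclast-like cells (155 cells) were found beside them. Osteoprogenitor-like, pre-osteoblast-like and osteoblast/osteocyte-like cells are called stromal-like together. Depth differed by genotype. Tagged macrophage-like cells had a median of 7163 UMIs in WT, 36134 in Fgf23cKO, 20358 in Dmp1KO and 35165 in Dmp1KO/Fgf23cKO.

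Promoters of 31 of the 39 genes were matched in the RefSeq table of GRCm38.p6. The motif CACGTG, a palindrome that reads the same on both strands, lay within the 300 bases around the start site in 12 of 31 genes (38.7%), against 8.09% of 27025 genes. Its longer form TCACGTGA, which contains CACGTG, was found in 6 of 31 (19.4%: *Atp6v0d1*, *Atp6v0e*, *Atp6v1a*, *Ctsa*, *Ctsd* and *Mcoln1*), against 1.13% of genes. A match is a description of these letters and not a binding site. The promoters of 6 genes are shown, up to the first annotated base of the gene: 3 with the motif and 3 without it, all of genes that the comparisons turn on. They are *Lamp1*, a major lysosomal membrane glycoprotein (chr8:13158911-13159160, plus strand), the calcium channel *Mcoln1* (chr8:3500269-3500456, plus), the proteolipid subunit *Atp6v0b* (chr4:117887334-117887579, minus), the V1 stalk subunit *Atp6v1e1* (chr6:120822794-120822948, minus), the beta-hexosaminidase alpha chain *Hexa* (chr9:59539290-59539539, plus) and cathepsin Z, *Ctsz* (chr2:174439040-174439289, minus), on GRCm38. Each reads 5′ to 3′ on the strand of its gene, and capitals mark CACGTG.
Lamp1: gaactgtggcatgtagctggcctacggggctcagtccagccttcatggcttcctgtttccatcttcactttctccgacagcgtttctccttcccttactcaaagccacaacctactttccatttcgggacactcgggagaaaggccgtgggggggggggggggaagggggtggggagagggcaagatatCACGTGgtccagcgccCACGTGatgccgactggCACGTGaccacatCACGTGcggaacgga
Mcoln1: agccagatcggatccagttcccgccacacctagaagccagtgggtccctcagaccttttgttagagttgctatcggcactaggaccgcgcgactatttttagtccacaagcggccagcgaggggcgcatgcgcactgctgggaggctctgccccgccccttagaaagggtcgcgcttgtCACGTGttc
Atp6v0b: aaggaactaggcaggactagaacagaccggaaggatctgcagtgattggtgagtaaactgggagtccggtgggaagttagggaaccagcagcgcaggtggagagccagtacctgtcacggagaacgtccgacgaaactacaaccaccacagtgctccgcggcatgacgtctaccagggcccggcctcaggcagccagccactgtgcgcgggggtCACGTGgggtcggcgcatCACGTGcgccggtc
Atp6v1e1: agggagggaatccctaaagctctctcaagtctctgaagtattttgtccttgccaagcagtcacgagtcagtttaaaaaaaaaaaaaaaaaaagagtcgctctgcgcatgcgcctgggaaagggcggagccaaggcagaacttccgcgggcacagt
Hexa: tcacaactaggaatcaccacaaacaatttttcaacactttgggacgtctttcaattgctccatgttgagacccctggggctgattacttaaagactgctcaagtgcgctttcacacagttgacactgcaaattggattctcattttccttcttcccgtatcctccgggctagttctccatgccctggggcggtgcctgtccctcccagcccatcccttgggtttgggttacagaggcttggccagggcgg
Ctsz: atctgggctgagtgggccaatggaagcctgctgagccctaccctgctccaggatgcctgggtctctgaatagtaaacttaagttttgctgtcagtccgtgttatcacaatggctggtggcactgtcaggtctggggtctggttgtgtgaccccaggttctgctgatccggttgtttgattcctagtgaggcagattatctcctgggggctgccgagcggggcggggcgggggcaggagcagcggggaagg
*Lamp1* held 4 copies within 61 bases of its start site and *Atp6v0b* 2. *Mcoln1* held 2 in its 300 bases, of which the shorter stretch shown has 1. The other, which starts 45 bases before the start site within the TCACGTGA counted above, lies beyond that stretch.

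Most of the 39 genes were more abundant in macrophage-like than in stromal-like cells of the same culture. In CPM, 33 were higher in macrophage-like cells in all 11 cultures, 1 was higher in stromal-like cells in all 11, and 5 differed between cultures. The share of all genes that did so was not computed, so these counts describe the list alone. Since the cell classes were made by clustering on expression, these ratios are a description and were not tested. The 3′ tags count transcript ends, so levels were not divided by gene length and are compared between cell classes rather than between genes.

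*Mitf* led the list with a median log2 ratio of macrophage-like over stromal-like level of 3.53 (range 2.47 to 3.99). Cathepsin S (*Ctss*), the cysteine protease that trims the invariant chain for antigen presentation, followed at 3.53 (range 2.52 to 4.24), and the macrophage membrane protein *Cd68* at 3.27 (range 2.53 to 3.99). Among the degradative enzymes the ratio was 2.88 (range 2.41 to 3.23) for legumain (*Lgmn*), 2.81 (range 2.35 to 3.29) for cathepsin B (*Ctsb*) and 2.43 (range 1.91 to 2.85) for the aspartyl protease cathepsin D (*Ctsd*). Progranulin (*Grn*), which is cleaved to granulins in lysosomes, was at 2.70 (range 2.38 to 3.09). The pump was more evenly shared. The median log2 ratio of its subunits ran from 0.39 for *Atp6v0e* to 2.09 for *Atp6v0a1*, 1 of the isoforms of the large membrane subunit.

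The tetraspanin *Cd63* was the only gene higher in stromal-like cells of every culture, at -0.65 (range -0.99 to -0.30). Acid alpha-glucosidase (*Gaa*), which degrades glycogen, cathepsin H (*Ctsh*), *Mcoln1*, the cholesterol carrier *Npc2* and *Atp6v1g1* had ratios of both signs. Macrophage markers in stromal-like cells stood at 5.4% to 13.2% of their macrophage-like level. In every culture 36 of the 39 genes had a higher stromal-like share than those markers. The share of all genes above the markers was not computed either. The median log2 ratio over the list was 0.90 to 1.57 per culture, against 3.11 to 4.35 for the macrophage markers.

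**Figure D1:**
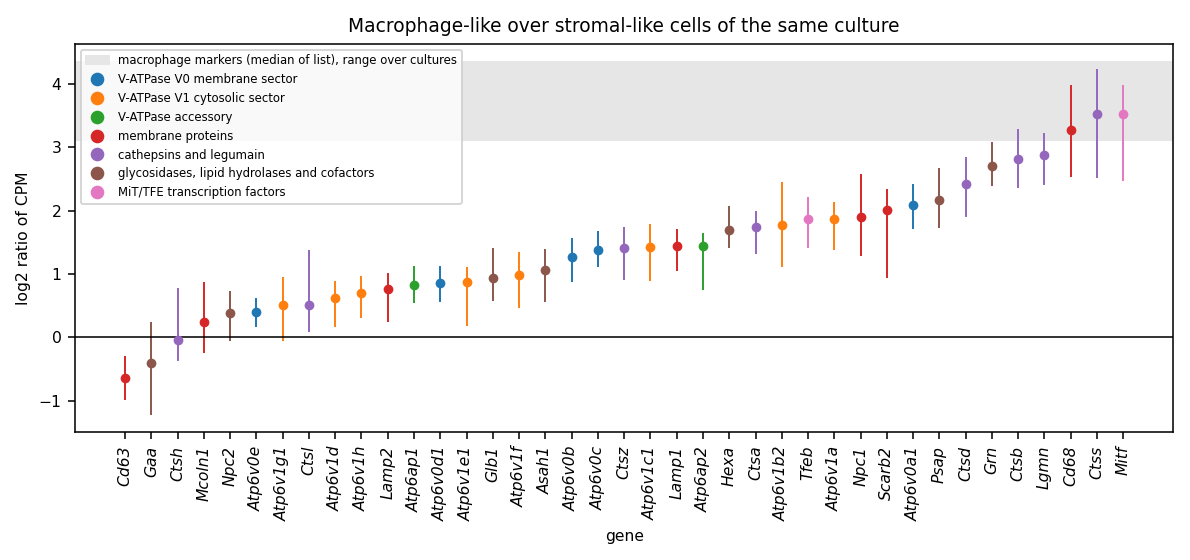
Log2 ratio of the CPM level in macrophage-like to that in stromal-like cells (y axis) for each of the 39 genes (x axis). Points are medians over the tagged cultures and lines the range from lowest to highest. *Mitf*, *Ctss* and *Cd68* have the highest medians, and *Cd63* is below 0 in all 11 cultures.

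Osteoclast-like cells could be compared in WT alone, where the 3 tagged cultures held 22, 23 and 50 of them. In each other genotype at least 1 culture held fewer than 10. *Acp5* and *Ctsk*, enzymes of bone resorption that are not on the list, were higher than in macrophage-like cells by 8.29 and 7.28 on the log2 scale. Of the 39 genes, 14 were higher in osteoclast-like than in macrophage-like cells with no overlap between cultures, 23 were lower and 2 overlapped. No share over all genes was computed for these counts, so they are not read as particular to the list. The 14 included all 8 V1 subunits, 3 V0 subunits, the accessory subunit *Atp6ap2*, *Npc2* and beta-galactosidase (*Glb1*).

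The ATP-binding subunit *Atp6v1b2* measured 877, 885 and 958 CPM in the osteoclast-like cells of WT replicates 1, 2 and 3, against 227 to 238 CPM in macrophage-like cells, a log2 ratio of 1.97. *Atp6v1e1* measured 1151, 1056 and 1032 CPM, against 367 to 402 CPM (1.48). *Atp6v0a1* went the other way, with 24.7, 28.9 and 40.0 CPM against 257 to 271 CPM (-3.09). Outside the list, the osteoclast isoform of that subunit, *Tcirg1*, was higher in osteoclast-like cells by 0.82 and the osteoclast subunit *Atp6v0d2* by 3.10. All 8 cathepsins and legumain, 5 of 7 glycosidases, lipid hydrolases and cofactors and 6 of 7 membrane proteins were lower than in macrophage-like cells in all WT cultures, with log2 ratios of -2.46 for *Ctsd*, -2.45 for *Ctsb*, -2.47 for *Lgmn* and -2.44 for *Lamp1*. *Glb1* and *Npc2* were higher, by 0.25 and 0.44. Both classes came from clustering, so no test was run.

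**Figure D2:**
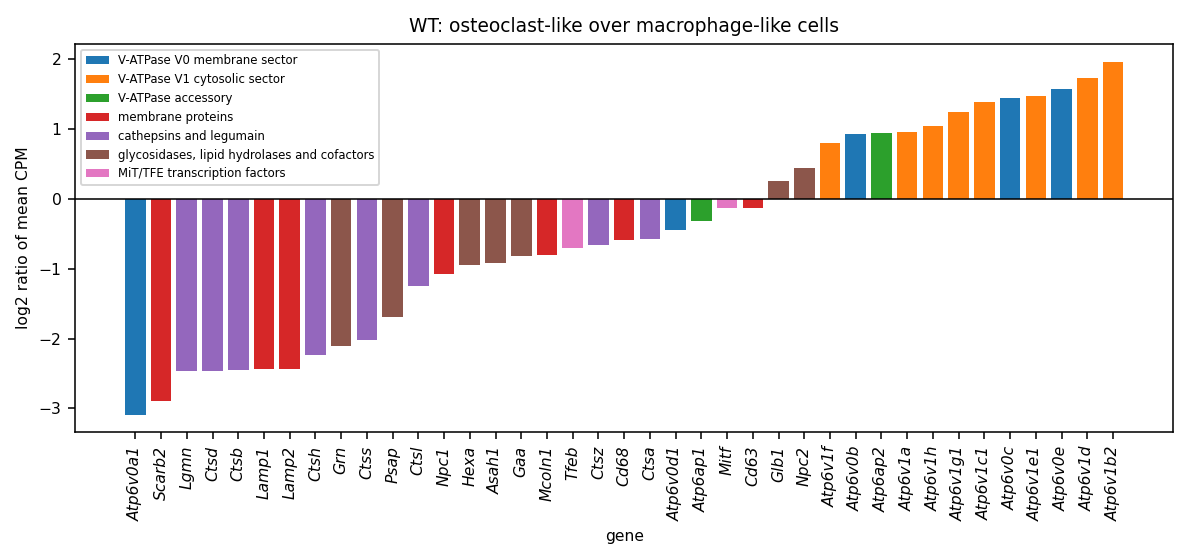
Log2 ratio of the mean CPM level in osteoclast-like to that in macrophage-like cells of WT cultures (y axis) for each of the 39 genes (x axis). V1 subunits lie above 0, from 0.81 for *Atp6v1f* to 1.97 for *Atp6v1b2*, and *Atp6v0a1* is the lowest at -3.09.

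The 4 genotypes were then compared in macrophage-like cells, on counts summed per tagged culture, by edgeR's quasi-likelihood test with Benjamini-Hochberg adjustment over all 12839 genes tested and a threshold of 0.1. Levels are CPM after TMM scaling, and changes are log2 fold changes. All 39 genes were tested. In Fgf23cKO 25 of 39 differed from WT, 7 higher and 18 lower. Over all genes 44.8% passed, 22.9% higher and 21.9% lower. In Dmp1KO 35 differed from WT, 15 higher and 20 lower, against 63.4% of all genes, 33.3% higher and 30.1% lower. In Dmp1KO/Fgf23cKO 30 differed from WT, 10 higher and 20 lower, against 55.5% of all genes, 27.6% higher and 27.9% lower. Dmp1KO/Fgf23cKO and Dmp1KO differed in 33 of 39 genes, 15 higher and 18 lower in Dmp1KO/Fgf23cKO, against 57.5% of all genes, 26% higher and 31.5% lower. The median change over the 39 genes was -0.09, -0.15, -0.11 and -0.05 in these comparisons, and about 0 over all genes. The comparisons with WT share the WT cultures. Tested as an interaction, the change that went with the *Fgf23* deletion differed between cultures with and without *Dmp1* for 34 of 39 genes, against 51.2% of all genes.

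Differences were frequent among all genes, and several measures moved with genotype beside them. Depth per cell differed as given above. The clusters that made up the macrophage-like class differed too. In WT 97.6% of its tagged cells were in cluster 0 (led by *Gm17268*, *Slc16a9* and *Marco*), whereas cluster 1 held 88.2% in Fgf23cKO and 96.3% in Dmp1KO/Fgf23cKO. In Dmp1KO 49.3% were in cluster 1 and 48.2% in cluster 7. Of the tagged cells in clusters with macrophage markers, the class held 2929 of 3891 in WT and 535 of 1012 in Fgf23cKO. It held 1419 of 4621 in Dmp1KO and 1293 of 1682 in Dmp1KO/Fgf23cKO. Cluster 4 (led by *Mfge8*, *Itgax* and *Mmp12*), where 96.5% of cells were Dmp1KO, carried macrophage markers but had no name. Values of the class in Dmp1KO are thus of a smaller part of such cells than in WT. Fits within single clusters and at equal UMIs per cell are given further on. Without TMM factors the median of all genes moved to -0.15 in Dmp1KO against WT and to 0.20 in Dmp1KO/Fgf23cKO against Dmp1KO, and the splits became 10 higher and 24 lower, and 23 higher and 8 lower. When cells were clustered at a resolution of 0.4 these splits were 7 and 30, and 28 and 1. When all clusters with macrophage markers were pooled they were 21 and 15, and 11 and 22.

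**Figure D3:**
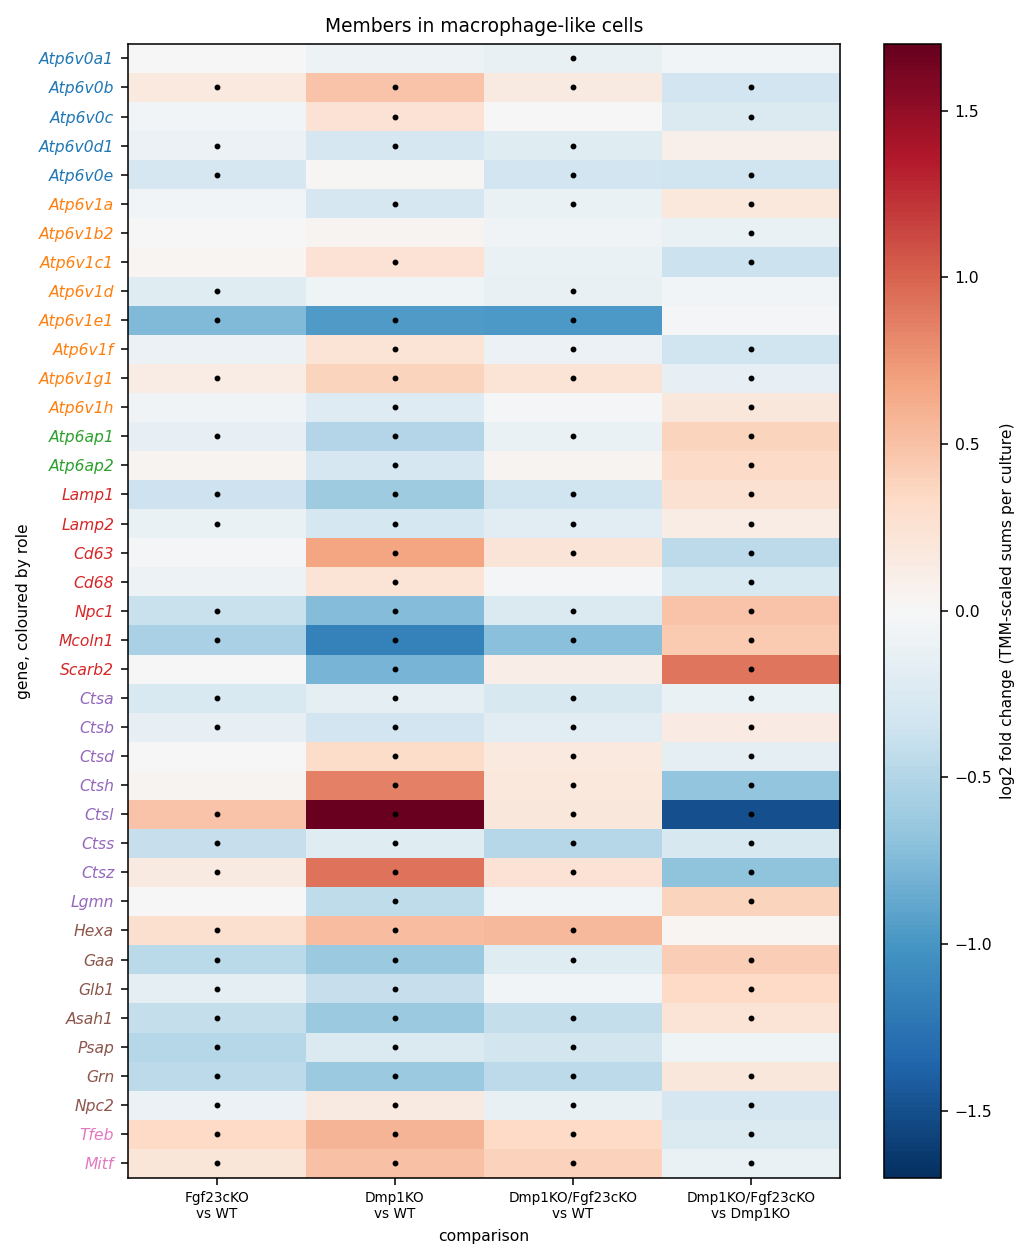
Log2 fold changes of the 39 genes (rows, grouped by role) in macrophage-like cells in each genotype comparison (columns). *Ctsl* in Dmp1KO against WT (1.68) and *Mcoln1* (-1.15) stand out in macrophage-like cells.

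Set against the promoters, 3 of the 12 genes with CACGTG were higher and 8 lower in Dmp1KO than in WT, and of the 19 without it 9 were higher and 8 lower. In Fgf23cKO the counts were 2 higher and 7 lower with the motif, and 4 higher and 8 lower without it. In Dmp1KO/Fgf23cKO they were 3 and 7 with it, and 5 and 10 without it. Genes with and without the motif moved both ways, with *Lamp1* and *Mcoln1* falling and *Atp6v0b* rising among the promoters printed.

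Within the pump, V0 subunits changed in both directions, from -0.32 to 0.48 against WT. Compared with WT, 1 of its 5 subunits was higher and 2 lower in Fgf23cKO, 2 higher and 1 lower in Dmp1KO, and 1 higher and 3 lower in Dmp1KO/Fgf23cKO. *Atp6v0b*, a proteolipid of the proton-carrying ring, is shown because its direction held in single clusters, a choice made after its values were seen. It measured 493, 516 and 537 CPM in WT, 575, 577 and 581 CPM in Fgf23cKO, 743 and 697 CPM in Dmp1KO, and 560.5, 575 and 582 CPM in Dmp1KO/Fgf23cKO cultures. Both Dmp1KO cultures were above all others, and WT cultures were below all others. The change from WT was 0.16 ± 0.05 (SE, adjusted p = 0.00846) in Fgf23cKO, 0.48 ± 0.05 (SE, adjusted p = 7.42e-08) in Dmp1KO and 0.15 ± 0.05 (SE, adjusted p = 0.0101) in Dmp1KO/Fgf23cKO. *Atp6v0e*, a small membrane subunit also named after its values were seen, measured 449.8, 449 and 439 CPM in WT, 347, 363 and 384 CPM in Fgf23cKO, 472 and 430.4 CPM in Dmp1KO, and 355, 347 and 366 CPM in Dmp1KO/Fgf23cKO cultures. It was lower in both groups with Cre, with changes of -0.29 and -0.32, while the Dmp1KO cultures overlapped WT (0.02).

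In the V1 sector 1 of 8 subunits was higher and 2 lower in Fgf23cKO, 3 higher and 3 lower in Dmp1KO, and 1 higher and 4 lower in Dmp1KO/Fgf23cKO, compared with WT. *Atp6v1e1*, part of the peripheral stalk that holds the ATP-hydrolysing head in place, fell in every mutant genotype. It measured 361, 389 and 403 CPM in WT, 223, 240.0 and 221 CPM in Fgf23cKO, 204 and 193 CPM in Dmp1KO, and 198, 199 and 192 CPM in Dmp1KO/Fgf23cKO cultures. WT cultures were above every mutant culture. The change from WT was -0.75 ± 0.05 (SE, adjusted p = 8.04e-10) in Fgf23cKO, -0.96 ± 0.06 (SE, adjusted p = 2.16e-11) in Dmp1KO and -0.97 ± 0.05 (SE, adjusted p = 4.82e-12) in Dmp1KO/Fgf23cKO. The Dmp1KO and Dmp1KO/Fgf23cKO cultures could not be separated (-0.01 ± 0.06 SE, adjusted p = 0.858). *Atp6v1e1* lies at chr6:120794305-120822793 on the minus strand, where the annotation places *Gm25193* on the same strand and *Slc25a18* on the other. Its partner in the stalk, *Atp6v1g1*, moved the opposite way, by 0.13, 0.37 and 0.23 in the same order.

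The accessory subunits *Atp6ap1* and *Atp6ap2*, which take part in assembling the pump, were lower in Dmp1KO than in WT with changes of -0.49 and -0.28. In Dmp1KO/Fgf23cKO both were above Dmp1KO (0.38 and 0.33). *Atp6ap1* measured 175, 179 and 184 CPM in WT, 162, 169.8 and 159 CPM in Fgf23cKO, 124 and 129.9 CPM in Dmp1KO, and 164, 166 and 168 CPM in Dmp1KO/Fgf23cKO cultures, and both Dmp1KO cultures were below all others.

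Membrane proteins mostly fell. Compared with WT, 0 of 7 were higher and 4 lower in Fgf23cKO, 2 higher and 5 lower in Dmp1KO, and 1 higher and 4 lower in Dmp1KO/Fgf23cKO. *Lamp1* measured 1674, 1748 and 1708 CPM in WT, 1336, 1396 and 1298 CPM in Fgf23cKO, 1119 and 1138 CPM in Dmp1KO, and 1337, 1369.9 and 1357 CPM in Dmp1KO/Fgf23cKO cultures. WT cultures were the highest and Dmp1KO cultures the lowest, and the remaining groups lay between them and overlapped each other. The change from WT was -0.35 ± 0.04 (SE, adjusted p = 1.68e-06) in Fgf23cKO, -0.60 ± 0.05 (SE, adjusted p = 1.31e-09) in Dmp1KO and -0.34 ± 0.04 (SE, adjusted p = 1.34e-06) in Dmp1KO/Fgf23cKO. Within cluster 1 the fall was not seen (0.11, -0.12 and 0.12, none past the threshold), while at equal UMIs per cell it was -0.49, -0.75 and -0.42.

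*Mcoln1*, the channel that releases calcium from lysosomes, measured 34.3, 31.3 and 28.9 CPM in WT, 23.4, 19.3 and 21.2 CPM in Fgf23cKO, 15.3 and 12.9 CPM in Dmp1KO, and 19.7, 17.8 and 19.5 CPM in Dmp1KO/Fgf23cKO cultures. The order of the groups was as for *Lamp1*, with WT cultures above and Dmp1KO cultures below all others. Its change was -0.55 ± 0.10 (SE, adjusted p = 2.19e-04), -1.15 ± 0.11 (SE, adjusted p = 1.49e-08) and -0.71 ± 0.09 (SE, adjusted p = 1.85e-06) in Fgf23cKO, Dmp1KO and Dmp1KO/Fgf23cKO. *Scarb2*, the receptor that carries beta-glucocerebrosidase to the lysosome, measured 174, 164 and 159.6 CPM in WT, 177, 172 and 141 CPM in Fgf23cKO, 91.0 and 99.5 CPM in Dmp1KO, and 179, 183 and 175 CPM in Dmp1KO/Fgf23cKO cultures. The Dmp1KO cultures were below all others. Dmp1KO/Fgf23cKO differed from Dmp1KO by 0.91 ± 0.07 (SE, adjusted p = 2.47e-09), and changes from WT in Fgf23cKO (-0.01) and Dmp1KO/Fgf23cKO (0.12) did not pass.

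*Npc1*, which exports cholesterol from lysosomes, measured 186, 197 and 182 CPM in WT, 145, 148 and 144 CPM in Fgf23cKO, 109 and 117 CPM in Dmp1KO, and 165, 158 and 152 CPM in Dmp1KO/Fgf23cKO cultures. It was lower in all mutant genotypes (-0.37, -0.74 and -0.25) and higher in Dmp1KO/Fgf23cKO than in Dmp1KO (0.49 ± 0.06 SE, adjusted p = 3.48e-07). *Cd63*, named after its values were seen, measured 882, 869 and 863 CPM in WT, 832, 832 and 904 CPM in Fgf23cKO, 1428 and 1335 CPM in Dmp1KO, and 954, 1046 and 1038 CPM in Dmp1KO/Fgf23cKO cultures. The Dmp1KO cultures were the highest (0.67 ± 0.05 SE, adjusted p = 1.82e-09 against WT).

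The proteases split by direction. Of 8 genes, 2 were higher and 3 lower in Fgf23cKO, 4 higher and 4 lower in Dmp1KO, and 4 higher and 3 lower in Dmp1KO/Fgf23cKO, compared with WT. *Ctsb*, a cysteine protease with both endo- and exopeptidase activity, measured 6160.4, 6349 and 6421 CPM in WT, 5765, 5648 and 5759 CPM in Fgf23cKO, 5199 and 4868 CPM in Dmp1KO, and 5511, 5549.6 and 5641 CPM in Dmp1KO/Fgf23cKO cultures. It was lower in every mutant genotype (-0.14, -0.33 and -0.18), with no overlap with WT. Its direction turned within cluster 3, where it was 0.70, 0.42 and 0.84. *Ctsd* measured 5115, 5369 and 5479 CPM in WT, 5319, 5478 and 5157 CPM in Fgf23cKO, 6944 and 6285 CPM in Dmp1KO, and 5746, 6183 and 5928 CPM in Dmp1KO/Fgf23cKO cultures. It was higher in Dmp1KO (0.31) and Dmp1KO/Fgf23cKO (0.16) than in WT, though the change in Dmp1KO was -0.35 at resolution 0.4. The difference between Dmp1KO/Fgf23cKO and Dmp1KO (-0.15) turned to 0.06 without TMM factors and failed the test without Dmp1KO replicate 2 (-0.08).

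*Ctsl*, cathepsin L, a potent cysteine endopeptidase, had the largest change of the list. It measured 403, 403 and 421 CPM in WT, 570.1, 504 and 648 CPM in Fgf23cKO, 1429.9 and 1194 CPM in Dmp1KO, and 459, 477 and 466 CPM in Dmp1KO/Fgf23cKO cultures. Both Dmp1KO cultures were above all others, and WT cultures were below all others. The change was 0.49 ± 0.07 (SE, adjusted p = 2.41e-05) in Fgf23cKO, 1.68 ± 0.08 (SE, adjusted p = 5.75e-13) in Dmp1KO and 0.19 ± 0.07 (SE, adjusted p = 0.0334) in Dmp1KO/Fgf23cKO, and Dmp1KO/Fgf23cKO was below Dmp1KO (-1.49 ± 0.08 SE, adjusted p = 2.91e-12). That difference was -0.10, -0.25 and 0.19 within clusters 1, 2 and 3, where it did not pass. The rise in Dmp1KO was 1.29 at equal UMIs per cell and 1.62 within cluster 2, but 0.27 within cluster 1 and 0.20 within cluster 3, neither past the threshold, and 0.21 in the class at resolution 0.4. Cluster 7 held 48.2% of the class in Dmp1KO, 0.478% in WT and 4.30% in Fgf23cKO.

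*Ctsz*, an exopeptidase, measured 629.7, 627 and 641 CPM in WT, 686, 708 and 711 CPM in Fgf23cKO, 1277 and 1119 CPM in Dmp1KO, and 724, 746 and 772 CPM in Dmp1KO/Fgf23cKO cultures. WT cultures were below every other culture. Its change from WT was 0.15 ± 0.05 (SE, adjusted p = 0.0229), 0.92 ± 0.05 (SE, adjusted p = 1.43e-11) and 0.24 ± 0.05 (SE, adjusted p = 4.21e-04), and Dmp1KO/Fgf23cKO was below Dmp1KO (-0.68), a difference that was 0.13 within cluster 1. *Ctsh*, an aminopeptidase, measured 154, 155 and 148 CPM in WT, 171, 155 and 146 CPM in Fgf23cKO, 289 and 262 CPM in Dmp1KO, and 168, 174 and 174 CPM in Dmp1KO/Fgf23cKO cultures. The Dmp1KO cultures were above all others, 0.85 ± 0.06 (SE, adjusted p = 3.34e-10) against WT. *Ctss* measured 2083, 2205 and 2158 CPM in WT, 1707, 1640.4 and 1565 CPM in Fgf23cKO, 1936 and 1786 CPM in Dmp1KO, and 1541, 1528 and 1553 CPM in Dmp1KO/Fgf23cKO cultures. It was lower in each mutant genotype (-0.39, -0.21 and -0.48), although in Dmp1KO it was 0.46 higher when all clusters with macrophage markers were pooled. Within cluster 1 it was 0.10 in Fgf23cKO and 0.05 in Dmp1KO/Fgf23cKO, and in Dmp1KO it was 0.19 within clusters 2 and 3.

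Glycosidases, lipid hydrolases and cofactors mostly fell: 1 of 7 was higher and 6 lower in Fgf23cKO, 2 higher and 5 lower in Dmp1KO, and 1 higher and 5 lower in Dmp1KO/Fgf23cKO, compared with WT. *Hexa*, which with its beta chain degrades GM2 ganglioside, rose in every mutant genotype. It measured 466, 502 and 499 CPM in WT, 597, 589 and 594 CPM in Fgf23cKO, 711 and 699 CPM in Dmp1KO, and 709, 728 and 720.5 CPM in Dmp1KO/Fgf23cKO cultures. Every mutant culture was above every WT culture, and the change was 0.28 ± 0.04 (SE, adjusted p = 4.44e-05), 0.53 ± 0.05 (SE, adjusted p = 9.88e-09) and 0.55 ± 0.04 (SE, adjusted p = 1.99e-09). Prosaposin (*Psap*), the precursor of the saposins that present lipids to hydrolases, measured 2764, 2874 and 2832 CPM in WT, 2025, 2001 and 2052 CPM in Fgf23cKO, 2397 and 2372 CPM in Dmp1KO, and 2276, 2249.7 and 2276 CPM in Dmp1KO/Fgf23cKO cultures. No groups overlapped, and Fgf23cKO was the lowest. Its change was -0.48 ± 0.04 (SE, adjusted p = 7.32e-09), -0.24 ± 0.04 (SE, adjusted p = 6.78e-05) and -0.32 ± 0.04 (SE, adjusted p = 1.04e-06). Within cluster 3 it was -0.04, 0.28 and 0.43 instead.

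*Grn* measured 1707, 1671 and 1713 CPM in WT, 1239.7, 1267 and 1218 CPM in Fgf23cKO, 1113 and 1079 CPM in Dmp1KO, and 1235, 1261 and 1261 CPM in Dmp1KO/Fgf23cKO cultures. WT cultures were above and Dmp1KO cultures below all others, and its change was -0.45, -0.63 and -0.44. *Gaa* measured 51.5, 53.7 and 56.3 CPM in WT, 40.6, 37.6 and 40.5 CPM in Fgf23cKO, 35.2 and 34.7 CPM in Dmp1KO, and 44.7, 45.6 and 50.9 CPM in Dmp1KO/Fgf23cKO cultures, again with WT highest. Its change was -0.45 ± 0.07 (SE, adjusted p = 5.41e-05), -0.63 ± 0.08 (SE, adjusted p = 4.61e-07) and -0.21 ± 0.06 (SE, adjusted p = 0.0111). Acid ceramidase (*Asah1*), named after its values were seen, changed by -0.40, -0.64 and -0.41. These 3 genes were also higher in Dmp1KO/Fgf23cKO than in Dmp1KO (0.19, 0.42 and 0.23).

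The transcription factors were higher in every mutant genotype than in WT. *Tfeb* measured 30.1, 25.0 and 29.8 CPM in WT, 34.7, 32.7 and 39.1 CPM in Fgf23cKO, 42.2 and 41.6 CPM in Dmp1KO, and 32.3, 35.7 and 39.2 CPM in Dmp1KO/Fgf23cKO cultures. Its change was 0.34 ± 0.10 (SE, adjusted p = 0.0112), 0.58 ± 0.10 (SE, adjusted p = 2.87e-05) and 0.34 ± 0.09 (SE, adjusted p = 0.00346). The call in Fgf23cKO was lost without WT replicate 2 (0.24), and the value turned to -0.31 at equal UMIs per cell. *Mitf* measured 443, 406 and 415 CPM in WT, 482, 506 and 472 CPM in Fgf23cKO, 584 and 607 CPM in Dmp1KO, and 558, 546 and 554 CPM in Dmp1KO/Fgf23cKO cultures. No WT culture reached the others, and the change was 0.21, 0.50 and 0.39. Within single clusters the Fgf23cKO change was -0.15 (cluster 1) and -0.39 (cluster 2). Both factors were lower in Dmp1KO/Fgf23cKO than in Dmp1KO (-0.24 and -0.11), but *Mitf* turned to 0.10 without TMM factors, and its call was lost without Dmp1KO replicate 3, any WT or any Dmp1KO/Fgf23cKO culture (-0.08 to -0.11). That of *Tfeb* was lost without Dmp1KO/Fgf23cKO replicate 1 (-0.17).

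**Figure D4:**
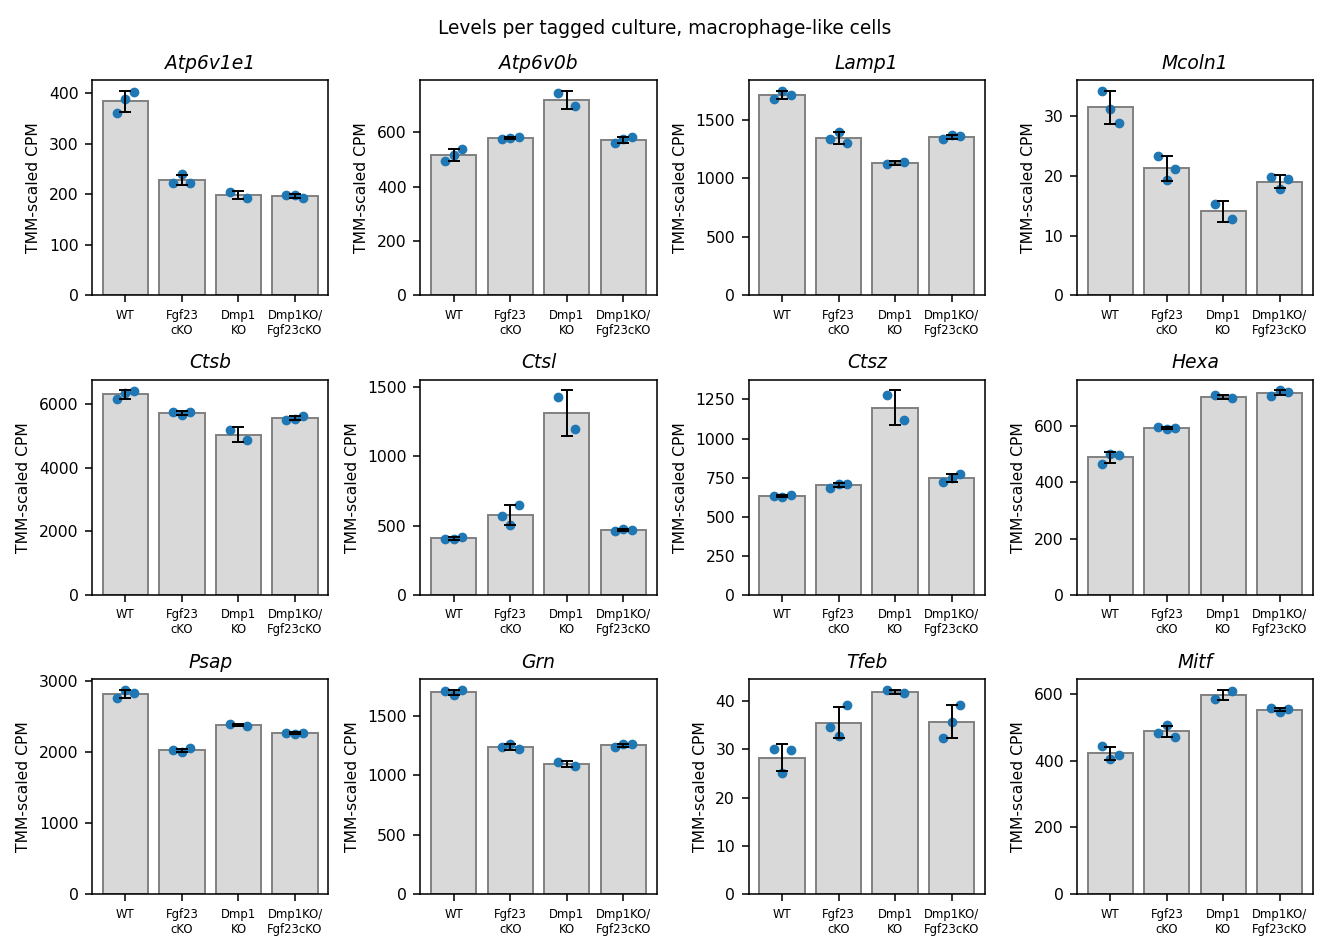
TMM-scaled CPM (y axis) of 12 genes in macrophage-like cells of each tagged culture (points), with the genotype mean (bars) and SD (error bars). WT cultures are highest for *Atp6v1e1*, *Lamp1* and *Mcoln1* and lowest for *Hexa*, and *Ctsl* reaches 1429.9 and 1194 CPM in Dmp1KO.

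The same test was run within single clusters, so that genotypes were compared over cells of 1 cluster. Clusters 1, 2 (led by *Tmem267*, *Ddit3* and *Mmp12*) and 3 (led by *Cd207* and *Ighm*) had at least 10 cells in every tagged culture. Clusters 2 and 3 carry macrophage markers but no name, so they are not part of the macrophage-like class. In cluster 1 the WT cultures held 14, 19 and 24 cells and the others 120 to 527. For Fgf23cKO, Dmp1KO and Dmp1KO/Fgf23cKO against WT and Dmp1KO/Fgf23cKO against Dmp1KO, 8.41%, 11.4%, 9.58% and 23% of all genes passed within cluster 1, 27.3%, 45.4%, 32.5% and 27% within cluster 2 and 25%, 34.5%, 32.4% and 20% within cluster 3. Of the 25 genes that differed in Fgf23cKO, 5 passed in the same direction in all 3 clusters, 5 in 2, 7 in 1 and 8 in none. For Dmp1KO the numbers were 6, 9, 16 and 4 of 35, for Dmp1KO/Fgf23cKO 6, 5, 10 and 9 of 30, and for Dmp1KO/Fgf23cKO against Dmp1KO 4, 10, 3 and 16 of 33. The share of all called genes that passed in as many clusters was not computed, so these numbers are not read as particular to the list. *Atp6v1e1*, *Hexa* and *Ctsz* passed in all 3 clusters in each mutant genotype. The change that went with the *Fgf23* deletion differed between cultures with and without *Dmp1* for 13, 25 and 17 of the 39 genes within clusters 1, 2 and 3, against 10.2%, 31.5% and 19.9% of all genes, and for 21 at equal UMIs per cell, against 17.6%.

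*Atp6v1e1* changed in clusters 1, 2 and 3 by -0.44, -0.93 and -0.70 in Fgf23cKO, -0.72, -1.18 and -1.06 in Dmp1KO, and -0.64, -1.10 and -0.95 in Dmp1KO/Fgf23cKO. *Hexa* was higher by 0.48, 0.26 and 0.97 in Fgf23cKO, 0.61, 0.80 and 1.45 in Dmp1KO, and 0.74, 0.62 and 1.24 in Dmp1KO/Fgf23cKO. *Ctsz* was higher by 0.38, 0.47 and 0.64 in Fgf23cKO, and by 0.39, 0.64 and 0.93 in Dmp1KO. In Dmp1KO/Fgf23cKO it was higher by 0.52, 0.48 and 0.90. Each of the 3 genes had 1 direction in all 3 clusters.

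UMIs per cell were made equal by thinning each macrophage-like cell to 1300 UMIs, which left out 13 tagged WT cells and 0 of the other genotypes. The sums tested then followed the number of cells, and held 774800 to 1652300 UMIs a culture in WT (4645016 to 9852831 before thinning) and 192400 to 257400 in Fgf23cKO (5493132 to 7822850 before), so that the depth of the sums differed more between these genotypes than before. The counts past the threshold became 15 of 39 genes in Fgf23cKO (2 higher and 13 lower), 26 in Dmp1KO (8 and 18) and 19 in Dmp1KO/Fgf23cKO (5 and 14), compared with WT, where 14.3%, 37.4% and 29.2% of all genes passed. Between Dmp1KO/Fgf23cKO and Dmp1KO 15 of 39 passed, against 21.4% of all genes. *Atp6v1e1* then changed by -0.56, -1.11 and -1.12. *Hexa* changed by 0.24, 0.49 and 0.41. *Ctsz* was 0.06 in Fgf23cKO, which did not pass, 0.66 in Dmp1KO and 0.18 in Dmp1KO/Fgf23cKO.

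**Figure D5:**
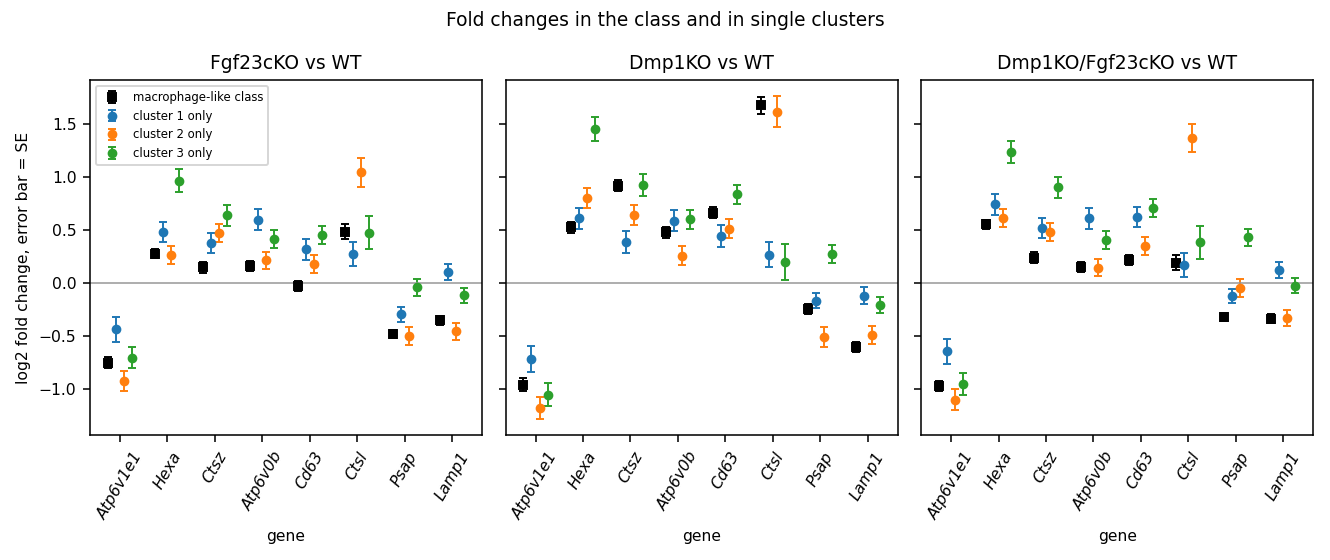
Log2 fold change from WT (y axis, error bars SE) of 8 genes (x axis), with 1 panel per mutant genotype. Black squares are the whole macrophage-like class, and blue, orange and green points clusters 1, 2 and 3 alone. Clusters 2 and 3 are outside that class. *Atp6v1e1* lies below 0 and *Hexa* and *Ctsz* above 0 throughout, while *Ctsl* in Dmp1KO is 1.68 in the class and 0.27 in cluster 1.

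The summed level of the 39 genes, in CPM without TMM factors, was highest in WT and lowest in Dmp1KO macrophage-like cells. It was 32359 to 32853 CPM in WT, 30139 to 30226 in Fgf23cKO, 28969.9 to 29878 in Dmp1KO and 31296 to 31933 in Dmp1KO/Fgf23cKO. With TMM factors the Dmp1KO mean was 32729 CPM instead of 29424, so its place below WT depended on the scaling. It depended on the clusters counted too. With all clusters grouped by macrophage markers pooled, without TMM factors, Dmp1KO was highest at 33960 to 34925 CPM, against 32463 to 32748 in WT. Cluster 2 had 37502 to 45377 CPM over all cultures. In cluster 3 WT cultures had 19795 to 22089 CPM and did not overlap 27347 to 29397 in Fgf23cKO, 27252 to 27474 in Dmp1KO and 31319 to 33869.7 in Dmp1KO/Fgf23cKO. Stromal-like cells had 8783 to 11643 CPM, and WT osteoclast-like cells 18938 to 21336 CPM.

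Other genes of the pathway were read from lists of the same kind. Over all genes tested in macrophage-like cells 22.9% were higher and 21.9% lower in Fgf23cKO, 33.3% and 30.1% in Dmp1KO, 27.6% and 27.9% in Dmp1KO/Fgf23cKO, and 26% and 31.5% in Dmp1KO/Fgf23cKO against Dmp1KO, and the counts of each list stand beside these shares. Of 46 other lysosomal hydrolases and cofactors, 4 were higher and 26 lower in Fgf23cKO, 6 and 30 in Dmp1KO, and 9 and 26 in Dmp1KO/Fgf23cKO, compared with WT. Between Dmp1KO/Fgf23cKO and Dmp1KO 26 were higher and 11 lower. *Idua*, which degrades heparan and dermatan sulphate, fell by 1.86 on the log2 scale in Dmp1KO, and *Ppt1*, which removes palmitate from proteins, by 0.70 in Fgf23cKO. *Hgsnat*, an acetyltransferase of heparan sulphate breakdown, was 1.59 higher in Dmp1KO/Fgf23cKO than in Dmp1KO.

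Of 38 other membrane proteins and transporters 34 were tested, and 6 were higher and 13 lower in Fgf23cKO, 5 and 22 in Dmp1KO, and 8 and 11 in Dmp1KO/Fgf23cKO, compared with WT. The cystine exporter *Ctns* changed by -1.27 in Dmp1KO, and *Cln3* by -0.75 in Fgf23cKO. Of 12 tested other V-ATPase subunits and assembly factors, 3 were higher and 4 lower, 6 and 4, and 4 and 4 in the same order. Among them *Atp6v0d2* had mean levels of 90.8 CPM in WT, 36.4 in Fgf23cKO, 243 in Dmp1KO and 42.5 in Dmp1KO/Fgf23cKO. It was 1.42 higher in Dmp1KO than in WT, and changed by -1.33 in Fgf23cKO and -1.12 in Dmp1KO/Fgf23cKO. *Atp6v0d2* is itself 1 of 8 osteoclast markers, of which 5 to 7 had UMIs in a culture's macrophage-like cells. *Ctsk*, another of them, changed by -2.10 in Dmp1KO/Fgf23cKO against WT. Their sum, which includes *Atp6v0d2*, was 139 to 159 CPM in WT, 52.4 to 108 in Fgf23cKO, 282 to 319 in Dmp1KO and 48.1 to 79.1 in Dmp1KO/Fgf23cKO. The part of the other markers in the result was not tested. Cluster 2, where 52.2% of cells were Dmp1KO, got no name because an osteoclast marker, *Atp6v0d2*, was among its leading genes. The macrophage-like class was thus chosen in part on *Atp6v0d2*. The part of that choice in the changes of *Atp6v0d2* was not tested.

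Of 21 receptors and adaptors of lysosomal sorting, 4 were higher and 9 lower in Fgf23cKO, 5 and 11 in Dmp1KO, and 5 and 12 in Dmp1KO/Fgf23cKO, compared with WT. The mannose 6-phosphate receptor *Igf2r* changed by -0.88 in Dmp1KO/Fgf23cKO. Of 19 tested MiT/TFE factors and mTORC1 regulators at the lysosome, 8 were higher and 5 lower, 8 and 7, and 7 and 3 in the same order. The Rag GTPase *Rragd* changed by -1.51 and folliculin (*Flcn*) by -1.13 in Dmp1KO, and the mTORC1 activator *Rheb* by 0.59 in Fgf23cKO. Of 23 autophagy genes, 9 were higher and 5 lower in Fgf23cKO, and 11 higher and 7 lower in both Dmp1KO and Dmp1KO/Fgf23cKO. The kinase *Ulk1*, which starts autophagy, changed by -1.02 in Dmp1KO. Of 12 tested dissociation stress genes, 4 were higher and 2 lower, 4 and 6, and 5 and 3. In Dmp1KO 78.3% of the autophagy genes and 83.3% of the stress genes passed, against 63.4% of all genes, and in Fgf23cKO 60.9% and 50%, against 44.8%.

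Markers of other cells in the macrophage-like class moved with genotype. All 8 stromal markers had UMIs in every genotype and summed to 120.1 to 138 CPM in WT, 193 to 198 in Fgf23cKO, 43.9 to 47.4 in Dmp1KO and 334 to 339 in Dmp1KO/Fgf23cKO, and 7 were higher in each group with Cre than in WT. All 8 cycling markers had UMIs too, at 57.9 to 66.4 CPM in WT, 52.0 to 70.1 in Fgf23cKO, 125 to 148 in Dmp1KO and 60.5 to 88.9 in Dmp1KO/Fgf23cKO. The macrophage markers summed to 35018 to 36691 CPM in WT, 40002 to 41037 in Fgf23cKO, 31758 to 31778 in Dmp1KO and 40716 to 41042 in Dmp1KO/Fgf23cKO. Their part in the changes of the lysosomal genes was not tested.

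Osteoprogenitor-like cells carried 37 of the 39 genes past the filter on low counts, and *Mcoln1* and *Tfeb* were not tested. Their medians were 2092 UMIs per tagged cell in WT, 4556 in Fgf23cKO, 3180 in Dmp1KO and 4508 in Dmp1KO/Fgf23cKO. In Fgf23cKO 10 of 37 genes differed from WT, 5 higher and 5 lower, against 18.4% of all 5024 genes tested. In Dmp1KO 7 differed, 6 higher and 1 lower, against 12.1% of all genes, and in Dmp1KO/Fgf23cKO 6 differed, 3 higher and 3 lower, against 24.1%. Dmp1KO/Fgf23cKO against Dmp1KO gave 0 of 37 in edgeR and 0 in DESeq2, against 2.45% of all genes in edgeR. An unadjusted p under 0.05 was had by 5 of 37 in edgeR. The share of all genes under it was not computed, so that count is not read as a difference.

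*Ctsz* was higher in every mutant genotype. It measured 190.5, 234 and 257 CPM in WT, 564, 286 and 460.3 CPM in Fgf23cKO, 377 and 654 CPM in Dmp1KO, and 474, 399 and 547 CPM in Dmp1KO/Fgf23cKO cultures. The change was 0.95 ± 0.31 (SE, adjusted p = 0.0604) in Fgf23cKO, 1.17 ± 0.33 (SE, adjusted p = 0.0432) in Dmp1KO and 1.04 ± 0.30 (SE, adjusted p = 0.0304) in Dmp1KO/Fgf23cKO. *Ctsl* measured 145, 178 and 364 CPM in WT, 389, 616 and 615 CPM in Fgf23cKO, 374 and 882 CPM in Dmp1KO, and 309, 349.7 and 352 CPM in Dmp1KO/Fgf23cKO cultures, a change of 1.16 ± 0.37 (SE, adjusted p = 0.0588) in Fgf23cKO and 1.39 ± 0.40 (SE, adjusted p = 0.0466) in Dmp1KO. *Ctsh* changed by 1.92 ± 0.47 (SE, adjusted p = 0.0229) in Dmp1KO, *Atp6v1g1* by 1.07 in Dmp1KO and 1.26 in Fgf23cKO, and *Npc2* by 0.90 in Dmp1KO/Fgf23cKO. *Grn* measured 417, 725 and 544 CPM in WT, 299, 113 and 188 CPM in Fgf23cKO, 265 and 223 CPM in Dmp1KO, and 281, 194 and 328 CPM in Dmp1KO/Fgf23cKO cultures, and was lower in each mutant genotype (-1.43, -1.20 and -1.06). *Mitf* fell by 2.53 in Fgf23cKO, where *Atp6v0a1* fell by 1.96 and *Atp6v1b2* by 1.94 on the log2 scale. Mean levels of these 3 genes over the 11 cultures were 79.7, 63.1 and 71.7 CPM without TMM factors. At its highest in a culture, their log2 ratio of macrophage-like over osteoprogenitor-like level was 9.01, 4.93 and 7.87. For *Mitf* and *Atp6v1b2* that leaves almost no UMIs in such a culture.

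Macrophage markers were present in these cells at 4.2% to 45.9% of their macrophage-like level: 15.6%, 45.9% and 23.9% in WT, 20.7%, 4.2% and 11.3% in Fgf23cKO, 34.1% and 14.3% in Dmp1KO, and 17.4%, 6.5% and 15.4% in Dmp1KO/Fgf23cKO. *Grn*, *Mitf*, *Atp6v0a1* and *Atp6v1b2* had median log2 macrophage-like over osteoprogenitor-like ratios of 2.36, 3.40, 2.20 and 2.47. Their levels exceeded the share of these markers in 10, 3, 5 and 8 of 11 cultures. The part of these markers in the falls was not tested. Without TMM factors the median of all genes moved to -0.46, -0.54 and -0.70 in Fgf23cKO, Dmp1KO and Dmp1KO/Fgf23cKO, and the splits became 1 higher and 10 lower, 1 and 2, and 0 and 17. Single cultures also set the counts. In Fgf23cKO 10 became 5 without WT replicate 2 and 6 without WT replicate 3. In Dmp1KO 7 became 3 and 2 without WT replicates 1 and 2, and 0 without Dmp1KO replicate 3. In Dmp1KO/Fgf23cKO 6 became 2 and 1 without its replicates 2 and 3. The 0 against Dmp1KO became 2 without Fgf23cKO replicate 2. All the genes named for Dmp1KO in osteoprogenitor-like cells were lost without its replicate 3, where the change of *Ctsl* was 0.72 and that of *Atp6v1g1* 0.57, and all those named for Dmp1KO/Fgf23cKO were lost without 1 or more of the cultures, among them its replicate 3 for *Ctsz* and *Npc2* and its replicate 2 for *Grn*. In Fgf23cKO the calls of *Grn*, *Atp6v0a1* and *Atp6v1g1* held whichever culture was left out, that of *Mitf* was lost without WT replicate 3 or Fgf23cKO replicate 1, and that of *Atp6v1b2* without WT replicate 3. At equal UMIs per cell 5, 3 and 3 of 16 genes tested passed in Fgf23cKO, Dmp1KO and Dmp1KO/Fgf23cKO, each of them lower, and 0 in Dmp1KO/Fgf23cKO against Dmp1KO, against 22%, 22.8%, 34.8% and 3.84% of all genes, and the change of *Ctsz* in Dmp1KO turned to -0.06.

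In pre-osteoblast-like cells all 39 genes were tested, at medians of 18825 UMIs per tagged cell in WT, 123699 in Fgf23cKO, 50964 in Dmp1KO and 108173 in Dmp1KO/Fgf23cKO. In Fgf23cKO 5 genes differed from WT, 4 higher and 1 lower, against 12.3% of all 11678 genes tested. In Dmp1KO 9 differed, 6 higher and 3 lower, against 12.2%, and in Dmp1KO/Fgf23cKO 10 differed, 3 higher and 7 lower, against 15.5%. Between Dmp1KO/Fgf23cKO and Dmp1KO 1 gene differed, *Atp6v1b2* (-0.64 ± 0.15 SE, adjusted p = 0.0966), against 1.35% of all genes. Macrophage markers were at 2.8% to 11.9% of their macrophage-like level here.

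*Atp6v1e1* and *Ctsz* moved as they did in macrophage-like cells, which are from the same cultures. *Atp6v1e1* measured 224, 211 and 241 CPM in WT, 119, 150.0 and 151 CPM in Fgf23cKO, 139.7 and 149 CPM in Dmp1KO, and 121, 114 and 91.8 CPM in Dmp1KO/Fgf23cKO cultures. WT cultures were above all mutant cultures, with changes of -0.70 ± 0.14 (SE, adjusted p = 0.0127), -0.65 ± 0.16 (SE, adjusted p = 0.0276) and -1.05 ± 0.14 (SE, adjusted p = 0.00105). *Ctsz* measured 200.4, 211 and 204 CPM in WT, 302, 344 and 394 CPM in Fgf23cKO, 454 and 379 CPM in Dmp1KO, and 361, 315 and 288 CPM in Dmp1KO/Fgf23cKO cultures. WT cultures were below all mutant cultures, with changes of 0.76 ± 0.14 (SE, adjusted p = 0.00837), 1.02 ± 0.15 (SE, adjusted p = 0.00287) and 0.65 ± 0.14 (SE, adjusted p = 0.0127).

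*Ctsd* measured 576, 721 and 693 CPM in WT, 932, 841 and 1374 CPM in Fgf23cKO, 1386 and 999 CPM in Dmp1KO, and 1162, 1048 and 994 CPM in Dmp1KO/Fgf23cKO cultures. It was higher in each mutant genotype (0.66, 0.85 and 0.69). *Lamp1* measured 684, 759 and 707 CPM in WT, 578, 574 and 665 CPM in Fgf23cKO, 494 and 521 CPM in Dmp1KO, and 493, 483 and 453 CPM in Dmp1KO/Fgf23cKO cultures. It was lower in Dmp1KO (-0.50) and Dmp1KO/Fgf23cKO (-0.59), and -0.24 in Fgf23cKO did not pass. *Npc1* measured 55.0, 48.4 and 63.5 CPM in WT, 35.2, 36.8 and 48.2 CPM in Fgf23cKO, 40.0 and 34.2 CPM in Dmp1KO, and 31.1, 27.6 and 31.2 CPM in Dmp1KO/Fgf23cKO cultures, and changed by -0.61 in Dmp1KO and -0.91 in Dmp1KO/Fgf23cKO. *Mcoln1* changed by -0.97 in Dmp1KO/Fgf23cKO. *Atp6v1g1* was higher in Fgf23cKO and Dmp1KO by 0.52 and 0.58, and *Atp6v0b* by 0.59 and 0.57.

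Counts again rested on single cultures. In Fgf23cKO 5 became 2 without WT replicate 1. In Dmp1KO 9 became 5 without WT replicate 1 or 2, 1 without Dmp1KO replicate 2 and 3 without Dmp1KO replicate 3, and *Atp6v1e1* was lost without either Dmp1KO culture. In Dmp1KO/Fgf23cKO 10 became 4 without WT replicate 1 and 6 without its own replicate 2 or 3. *Atp6v1b2* in Dmp1KO/Fgf23cKO against Dmp1KO was lost without WT replicate 1 or 3, Fgf23cKO replicate 1, either Dmp1KO culture or any Dmp1KO/Fgf23cKO culture, and the count was 2 without Fgf23cKO replicate 3. The call of *Ctsd* was lost in Fgf23cKO without WT replicate 1 or 3 or Fgf23cKO replicate 3 (0.41), in Dmp1KO without its replicate 2 (0.61), and in Dmp1KO/Fgf23cKO without WT replicate 1 or its own replicate 1. *Atp6v0b* in Fgf23cKO was lost without WT replicate 1 or Fgf23cKO replicate 3 (0.38), and *Mcoln1* in Dmp1KO/Fgf23cKO without WT replicate 1 or Dmp1KO/Fgf23cKO replicate 3. *Atp6v1g1* in Fgf23cKO passed in no such fit other than those without WT replicate 3 or Dmp1KO/Fgf23cKO replicate 1. In Dmp1KO it was lost without either Dmp1KO culture, WT replicate 1 or 2 or Fgf23cKO replicate 3, and *Npc1* without either Dmp1KO culture, WT replicate 1 or 3 or Dmp1KO/Fgf23cKO replicate 1 or 2. The calls of *Ctsz* in all mutant genotypes, and of *Atp6v1e1* in both groups with Cre, held whichever culture was left out. At equal UMIs per cell 15 of the 39 genes were tested in these cells, and 0, 0 and 1 passed in Fgf23cKO, Dmp1KO and Dmp1KO/Fgf23cKO and 0 in Dmp1KO/Fgf23cKO against Dmp1KO, against 8.46%, 11.9%, 12.2% and 0.348% of all genes, while the change of *Ctsz* in Fgf23cKO turned to -0.23.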

How the data were processed

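The authors sorted live cells, tagged each culture, sequenced 10x Genomics 3′ libraries (v3) and demultiplexed and counted them with Cell Ranger 7.0.1 on mm10, per the labels. The values deposited are raw UMI counts per gene and cell, 1 matrix a sample, 15 of 16 samples being analysed here. Replicate 4 of each genotype holds cells that the study describes as untagged, and entered only the clustering and 1 alternative. These cells did hold tag UMIs. Their commonest tag had a median share of 0.62 to 0.76 by genotype, against 0.83 to 0.99 in the tagged cultures.

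Matrices were joined in Seurat 5.3.0 (R 4.3.3), normalized with SCTransform (sctransform 0.4.2, 3000 variable features, mitochondrial share regressed out) and clustered at resolution 0.8 with 30 components, which gave 20 clusters, named from fixed markers where at least 3 were detected. No filter on cells was added and no doublet caller was run, and the study describes the untagged cells as nondoublets. Of the 39 genes, 6 were among the variable features. Sums over the cells of each class in a tagged culture (at least 10 cells) were tested in edgeR 4.0.16 with TMM factors, filterByExpr, all 4 genotypes in 1 quasi-likelihood fit and a Benjamini-Hochberg threshold of 0.1. The scripts were tested on simulated data. Alternatives were DESeq2 1.42.0, other scaling, filters, thresholds, resolutions, thinning to 1300 UMIs, a replicate block and leaving out each culture, and, chosen after seeing the data, single clusters and no scaling factors. The total UMIs per culture and class set the precision, and the intervals given by SE cover the spread between cultures of the same reaction. With 1 reaction per genotype they hold no spread between reactions.

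The genes described and the pathway lists were chosen with earlier results of these data known. Genes named are *Lamp1*, the 5 most abundant members, *Tfeb*, *Mitf*, the 5 largest changes past the threshold per class and comparison, and up to 2 per pathway list. Others are said to be named after their values were seen. *Atp6ap1*, *Atp6ap2* and *Atp6v1g1* in macrophage-like cells also stand outside this rule, without such a remark. Promoters came from the RefSeq table of GRCm38.p6 and gene positions from GENCODE on GRCm38, the build of mm10. By that annotation 6 of the 39 genes lie under a gene on the same strand and 14 under one on the other strand, and 2 have named pseudogenes (*Atp6v0c* and *Cd63*), so reads of these may be shared.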

Additional observations from a re-analysis of the deposited data

Results flagged for a closer look

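In macrophage-like cells the change that went with the *Fgf23* deletion and its Cre differed between cultures with and without *Dmp1* for 34 of the 39 genes. Each value is the log2 change from Dmp1KO to Dmp1KO/Fgf23cKO minus that from WT to Fgf23cKO, tested as an interaction by edgeR's quasi-likelihood test with Benjamini-Hochberg adjustment at a threshold of 0.1. Of all 12839 genes 51.2% passed, and all 34 values follow. It was above 0 for 20 genes and below 0 for 14, and without TMM factors, which move the median of all genes to 0.18, above 0 for 22 and below 0 for 7. Among V0 subunits it was -0.49 (*Atp6v0b*), -0.21 (*Atp6v0c*) and 0.19 (*Atp6v0d1*). Among V1 subunits it was -0.40 (*Atp6v1c1*), -0.27 (*Atp6v1g1*), -0.24 (*Atp6v1f*), 0.15 (*Atp6v1d*), 0.22 (*Atp6v1a*), 0.25 (*Atp6v1h*) and 0.74 (*Atp6v1e1*). For the accessory subunits it was 0.28 (*Atp6ap2*) and 0.52 (*Atp6ap1*). For the membrane proteins it was -0.42 (*Cd63*), 0.24 (*Lamp2*), 0.61 (*Lamp1*), 0.86 (*Npc1*), 0.92 (*Scarb2*) and 0.99 (*Mcoln1*). For the cathepsins and legumain it was -1.98 (*Ctsl*), -0.83 (*Ctsz*), -0.73 (*Ctsh*), -0.15 (*Ctsd*), 0.14 (*Ctsa*), 0.29 (*Ctsb*) and 0.37 (*Lgmn*). For glycosidases, lipid hydrolases and cofactors it was -0.25 (*Hexa*), -0.18 (*Npc2*), 0.41 (*Psap*), 0.51 (*Glb1*), 0.63 (*Asah1*), 0.64 (*Grn*) and 0.87 (*Gaa*). For the transcription factors it was -0.58 (*Tfeb*) and -0.32 (*Mitf*). For *Ctsl*, for instance, the deletion went with a change of 0.49 where *Dmp1* was intact and -1.49 where it was absent, and for *Scarb2* with -0.01 and 0.91. The change of *Ctsl* where *Dmp1* was absent was 0.19 within cluster 3. Within cluster 1 alone 13 genes passed this test, against 10.2% of all genes, within cluster 2 alone 25, against 31.5%, within cluster 3 alone 17, against 19.9%, and at equal UMIs per cell 21, against 17.6%. In cluster 1 the WT cultures held 14, 19 and 24 cells. Clusters 2 and 3 are not part of the macrophage-like class. Both arms compare 1 droplet reaction with another, with 2 cultures in Dmp1KO, and cluster 7 was common in Dmp1KO only, at 48.2% of its macrophage-like cells.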

How the results depend on the processing

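The counts of called genes by class, the summed level, the ratio of macrophage-like to stromal-like levels and the named genes were computed again with 1 choice changed at a time. The pathway lists, the osteoclast-like comparison, the promoter counts and the marker sums were not. Of the values for single genes, 1733 kept direction and call, 191 kept direction and lost the call, and 37 turned. The turned values follow, in macrophage-like cells unless named otherwise, and the cause was not tested. Clusters 2 and 3 are not part of the macrophage-like class, so values within them are of other cells with macrophage markers. Within cluster 1 they were *Lamp1* 0.11, *Ctsb* 0.09, *Ctss* 0.10 and *Mitf* -0.15 for Fgf23cKO against WT, *Ctss* 0.05, *Lamp1* 0.12 and *Ctsb* 0.06 for Dmp1KO/Fgf23cKO against WT, *Ctsz* 0.13, *Ctsh* 0.04, *Ctsd* 0.54 and *Ctss* 0.18 for Dmp1KO/Fgf23cKO against Dmp1KO. Within cluster 2 they were *Mitf* -0.39 for Fgf23cKO against WT, *Ctss* 0.19 for Dmp1KO against WT, *Mitf* -0.04 for Dmp1KO/Fgf23cKO against WT, *Ctsd* 0.04 for Dmp1KO/Fgf23cKO against Dmp1KO. Within cluster 3 they were *Ctsb* 0.70 for Fgf23cKO against WT, *Ctsb* 0.42, *Psap* 0.28 and *Ctss* 0.19 for Dmp1KO against WT, *Grn* 0.04, *Ctsb* 0.84 and *Psap* 0.43 for Dmp1KO/Fgf23cKO against WT, *Ctsl* 0.19 and *Ctsd* 0.25 for Dmp1KO/Fgf23cKO against Dmp1KO. At resolution 0.4 they were *Ctsd* -0.35 for Dmp1KO against WT, *Ctsz* 0.13, *Ctsh* 0.07, *Ctsd* 0.53 and *Ctss* 0.18 for Dmp1KO/Fgf23cKO against Dmp1KO. With all macrophage-marker clusters pooled they were *Psap* 0.07 and *Ctss* 0.46 for Dmp1KO against WT. At equal UMIs per cell they were *Tfeb* -0.31 for Fgf23cKO against WT, *Ctsd* 0.01 for Dmp1KO/Fgf23cKO against Dmp1KO, *Ctsz* -0.06 for Dmp1KO against WT in osteoprogenitor-like cells, *Ctsz* -0.23 for Fgf23cKO against WT in pre-osteoblast-like cells. Without TMM factors they were *Ctsd* 0.06 and *Mitf* 0.10 for Dmp1KO/Fgf23cKO against Dmp1KO.

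Counts of called genes moved by over 1.5 times as follows, where counts within clusters 2 and 3 are of cells outside the macrophage-like class. In macrophage-like cells, Fgf23cKO against WT, the count of 25 became 15 at equal UMIs per cell and 12 within cluster 1. In macrophage-like cells, Dmp1KO against WT, the count of 35 became 12 within cluster 1 and 21 within cluster 3. In macrophage-like cells, Dmp1KO/Fgf23cKO against WT, the count of 30 became 19 at equal UMIs per cell, 11 within cluster 1 and 19 within cluster 3. In macrophage-like cells, Dmp1KO/Fgf23cKO against Dmp1KO, the count of 33 became 15 at equal UMIs per cell, 15 within cluster 2 and 13 within cluster 3. In macrophage-like cells, the interaction, the count of 34 became 21 at equal UMIs per cell, 13 within cluster 1 and 17 within cluster 3. In osteoprogenitor-like cells, Fgf23cKO against WT, the count of 10 became 5 at equal UMIs per cell. In osteoprogenitor-like cells, Dmp1KO against WT, the count of 7 became 4 with the replicate number as a block, 4 at an adjusted p under 0.05, 3 at equal UMIs per cell, 4 at resolution 0.4 and 3 without TMM factors. In osteoprogenitor-like cells, Dmp1KO/Fgf23cKO against WT, the count of 6 became 3 at equal UMIs per cell, 12 at resolution 0.4 and 17 without TMM factors. In osteoprogenitor-like cells, Dmp1KO/Fgf23cKO against Dmp1KO, the count of 0 became 1 without a filter on low counts and 2 with at least 20 cells a culture. In pre-osteoblast-like cells, Fgf23cKO against WT, the count of 5 became 10 with untagged samples as replicates, 9 without a filter on low counts, 2 at an adjusted p under 0.05 and 0 at equal UMIs per cell. In pre-osteoblast-like cells, Dmp1KO against WT, the count of 9 became 5 with the replicate number as a block, 5 at an adjusted p under 0.05 and 0 at equal UMIs per cell. In pre-osteoblast-like cells, Dmp1KO/Fgf23cKO against WT, the count of 10 became 1 at equal UMIs per cell. In pre-osteoblast-like cells, Dmp1KO/Fgf23cKO against Dmp1KO, the count of 1 became 10 with untagged samples as replicates, 0 with the replicate number as a block, 3 in DESeq2, 4 without a filter on low counts, 0 at an adjusted p under 0.05, 0 at equal UMIs per cell, 0 at resolution 0.4, 0 without TMM factors and 2 with at least 20 cells a culture.

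Leaving out each culture in turn gave ranges of 20 to 26, 34 to 36, 27 to 32, 28 to 33, 31 to 33 in macrophage-like cells for Fgf23cKO, Dmp1KO and Dmp1KO/Fgf23cKO against WT, Dmp1KO/Fgf23cKO against Dmp1KO and the interaction, of 5 to 11, 0 to 8, 1 to 8, 0 to 2 in osteoprogenitor-like and 2 to 5, 1 to 9, 4 to 11, 0 to 2 in pre-osteoblast-like cells for the first 4 of these. In macrophage-like cells the call of *Mitf* in Dmp1KO/Fgf23cKO against Dmp1KO was lost without Dmp1KO replicate 3, any WT or any Dmp1KO/Fgf23cKO culture (-0.08 to -0.11), and that of *Tfeb* without Dmp1KO/Fgf23cKO replicate 1 (-0.17). The summed level of the 39 genes in macrophage-like cells moved to 29330, 28398 and 31217 CPM at equal UMIs per cell and to 29499, 32729 and 30382 CPM with TMM factors in Fgf23cKO, Dmp1KO and Dmp1KO/Fgf23cKO, and to 29978 CPM in Fgf23cKO when the 39 genes were kept out of the clustering, which also took the median log2 ratio of macrophage-like to stromal-like levels from 1.39 to 1.12. Cultures with the same replicate number did not vary together (correlations -0.09 to 0.02 in macrophage-like, -0.25 to 0.28 in osteoprogenitor-like and -0.10 to 0.10 in pre-osteoblast-like cells), so the numbers were not read as pairs. With the replicate number as a block the counts were 23, 35, 29, 31 in macrophage-like cells with an interaction count of 32, 11, 4, 5, 0 in osteoprogenitor-like and 5, 5, 8, 0 in pre-osteoblast-like cells. Small cell numbers limit the stromal classes, which held 63 to 140 and 47 to 91 tagged cells a genotype.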
